A study of Mus musculus with 2 samples.

Results

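The Plet1-positive dendritic cells described here were 200 single cells, out of 6736 that passed the cell filters, that carried the surface protein transcript Plet1 together with the MHC class II chaperone transcript Cd74. They were chosen from measured values: at least 3 unique molecular identifiers (UMIs, each a counted transcript molecule) of Plet1, at least 20 of Cd74, under 10 of C1qa, C1qb and C1qc together and under 20 of Jchain. Cells had to have at least 500 genes detected and at most 10% of their UMIs in mitochondrial genes. Of the 200 cells, 19 were among 3397 kept cells of the wild-type (WT) library and 181 among 3339 kept cells of the Zfp36-deficient library.

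The study compared innate lymphoid cells of the small-intestinal lamina propria between WT mice and Zfp36-/- mice, all C57BL/6, by 10x Genomics 3' single-cell RNA sequencing. Cells were sorted as live, CD45+, lineage-negative, CD3-negative, TCRβ-negative, CD90.2+ and CD127+. The cells of 4 mice were pooled for each genotype and gave 1 library per genotype, so no difference between the genotypes has a replicate check, and no p-value is given. Age, sex and treatment of the mice, and the composition of the lineage cocktail, were not given in the sources used here. The intervals below are exact 95% intervals that cover counting error only, not differences between mice or between sorts. Those of ratios treat each UMI of a class as an independent draw, so they also leave out the spread between cells and can be too narrow.

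Dendritic cells take up antigen in the lamina propria, carry it to lymph nodes and present it to T cells on MHC class II. Conventional dendritic cells depend on the receptor tyrosine kinase Flt3 and fall into a cDC1 branch, which needs Irf8, and a cDC2 branch, in which Irf4 is active. In the gut, dendritic cells are a known source of IL-22 binding protein, the soluble decoy receptor encoded by Il22ra2, which holds back the IL-22 that innate lymphoid cells release. Plet1 is a GPI-anchored surface protein that has been described on small-intestinal dendritic cells. Zfp36 encodes tristetraprolin, which binds AU-rich elements in the 3' untranslated regions of transcripts and speeds their decay.

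The libraries held 24721524 UMIs over 3593 barcodes (WT) and 27733804 UMIs over 3522 barcodes (knockout). The Plet1+ cells were deep: the median was 20367 UMIs per cell in WT (lowest 10597, highest 42306) and 24527 in the knockout (937 to 49258), against 5305 and 5338 over all kept cells. The libraries shared 2 barcodes, none of them of a Plet1+ cell. Cells with Y-linked UMIs and no Xist UMI numbered 448 in the knockout library and 0 in WT, so the pools differed in sex makeup. Among the Plet1+ cells, 29 of 181 knockout cells and 0 of 19 WT cells were of this male type. At least 3 UMIs of T cell and innate lymphoid cell identity genes were carried by 3 of 19 WT and 44 of 181 knockout Plet1+ cells. Scrublet, a doublet caller, marked 0 of 19 and 1 of 181 Plet1+ cells. It marked only 5 of 3339 kept knockout cells, so doublets were not removed and a low rate there is no evidence of few doublets.

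The 3-UMI threshold cut through few cells. Among cells that met the other criteria, 2 WT and 3 knockout cells had 2 Plet1 UMIs, 0 and 4 had 3, and 1 and 2 had 4. In the chosen cells Plet1 ranged from 4 to 27 UMIs in WT (median 9) and from 3 to 91 in the knockout (median 29). Cd74 ranged from 166 to 1024 UMIs in WT and from 21 to 1375 in the knockout, and 11 of 19 WT and 150 of 181 knockout cells had no C1q UMI.

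Plet1+ cells made up 0.559% of the kept WT cells (0.337% to 0.872%, 19 cells) and 5.42% of the kept knockout cells (4.68% to 6.24%, 181 cells). The knockout share was 9.69-fold that of WT (6.03 to 16.5). Macrophages, taken as cells with at least 10 UMIs of the complement genes C1qa, C1qb and C1qc, were 1.65% (1.25% to 2.14%, 56 cells) and 4.10% (3.46% to 4.83%, 137 cells), a 2.49-fold higher share in the knockout (1.81 to 3.46). Of Plet1+ cells and macrophages together, Plet1+ cells were 25.3% in WT (15.99% to 36.7%) and 56.9% in the knockout (51.3% to 62.4%). Both classes lie outside the sort's target population, and shares in a sort can be set by its gates. Without the male-type cells the knockout share was 5.26%. With at most 5% mitochondrial UMIs it was 3.86%, from 45 cells, and without the cells that carried lymphoid identity UMIs it was 4.10%.

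**Figure D1:**
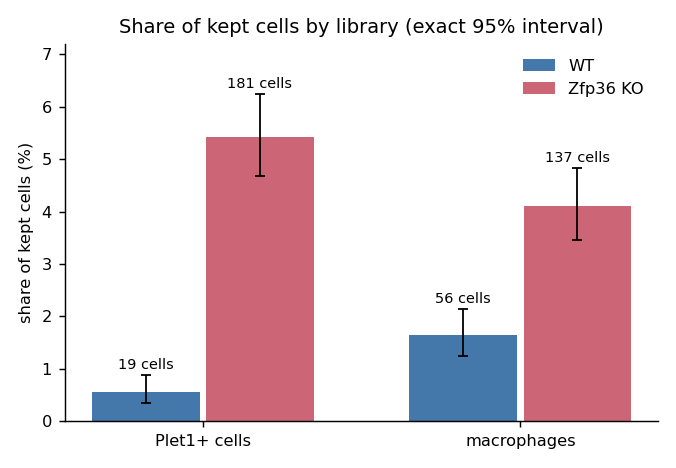
Bars give the share of kept cells (%) that were Plet1+ cells or macrophages in the WT and Zfp36 KO libraries, with exact 95% intervals for counting error and the number of cells above each bar. Plet1+ cells were 0.559% in WT and 5.42% in the knockout, and macrophages 1.65% and 4.10%.

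The label was set beside lists of marker genes. The lists were chosen with earlier results of these data known, so their counts are descriptions. Levels are given as CPM, the UMIs of a gene per 1000000 UMIs, both summed over a class of cells in a library. Flt3, the growth factor receptor of conventional dendritic cells, was at 161 CPM in WT and 130.3 CPM in knockout Plet1+ cells, against 12.6 and 19.4 CPM in macrophages. Zbtb46, a transcription factor of the conventional dendritic lineage, was at 41.4 and 40.9 CPM against 4.21 and 9.13. All 9 measured genes of the conventional dendritic cell list were at least 1.5-fold higher in Plet1+ cells than in macrophages of the knockout library with an interval that excluded 0, where 11.5% of 10371 genes with at least 20 UMIs were so. The median log2 ratio of the list was 2.16, against -0.19 over all genes measured. In WT, 8 of 8 were higher, where 11.9% of 5816 genes were.

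Of 12 cDC2 genes, 5 were higher than in knockout macrophages (Cd209a, Epcam, Irf4, Clec4a4 and Mgl2) and 2 lower (Cd7 and Sirpa). Of 9 cDC1 genes, 2 were higher (Itgae and Wdfy4) and 3 lower (Irf8, Cadm1 and Xcr1). In WT, 4 of 11 cDC2 genes were higher (Cd209a, Epcam, Irf4 and Klf4) and 2 lower (Cd7 and Mgl2). Of 6 cDC1 genes measured there, 3 were higher (Wdfy4, Itgae and Naaa) and 2 lower (Cadm1 and Irf8). Mgl2 thus lay in opposite directions in the libraries, and the counts of WT did not set cDC2 above cDC1 genes. Over all genes with at least 20 UMIs, 11.5% were higher and 26.7% lower in the knockout, and 11.9% and 20.6% in WT. Irf4, the cDC2-associated transcription factor, was at 84.9 CPM in WT and 74.3 CPM in the knockout, 2.36 above macrophages on the log2 scale in the knockout (1.88 to 2.89). Epcam, an adhesion molecule, was found in 19 of 19 WT and 173 of 181 knockout cells, at 368 and 321 CPM. The C-type lectin Cd209a stood at 451 and 116 CPM, against 8.42 and 9.51 CPM in macrophages. Itgae, the CD103 integrin chain of intestinal dendritic cells, had a median of 5 UMIs per cell in WT (1 to 11) and 11 in the knockout (0 to 49). Sirpa was at 224 and 114 CPM and Itgam at 107 and 113 CPM. The cDC1 receptors were scarce: Xcr1 was at 4.35 and 9.32 CPM and Clec9a at 2.18 and 6.37 CPM, and 57.1% of the Clec9a UMIs of the knockout cells lay in 1 cell. Ccr7, the receptor that guides mature dendritic cells to lymph nodes, was at 0 UMIs in WT and 7.73 CPM in the knockout.

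Markers of other cells were read the same way. Of 8 plasmacytoid dendritic cell markers, 4 had no UMI in either library (Siglech, Ly6d, Cox6a2 and Klk1) and 4 were found in at least 10% of the Plet1+ cells. The list summed to 311 CPM in WT and 291 CPM in the knockout, against 596 and 509 CPM in macrophages and 614 and 618 CPM in Il7r+ lymphoid cells. Of 10 B cell markers, 8 were at 0 in WT and 6 in the knockout, and the list summed to 4.35 and 5.91 CPM. Of 14 macrophage markers, 8 were found in at least 10% of WT and 5 in at least 10% of knockout Plet1+ cells. Their sum was 736 CPM in WT (4043 CPM in the highest cell) and 364 CPM in the knockout, against 24126 and 11161 CPM in macrophages. The sums include C1qa, C1qb and C1qc, which the choice of both classes used, so the choice itself set part of this gap. In knockout macrophages these genes were at 1881, 2222 and 1349 CPM. Of the other macrophage markers, the receptors Mrc1 and Fcgr1 had 0 UMIs in WT and 1 each in the knockout. Of the gate's own genes, Il7r, which encodes CD127, was at 37.0 CPM in WT and 94.8 CPM in knockout Plet1+ cells, and Thy1, which encodes CD90, at 52.2 and 34.8 CPM. Il7r was at 737 and 638 CPM in the macrophages. The summed T cell list was at 250 CPM in WT and 62.3 CPM in the knockout. Of the WT cells' 25 Trac UMIs, 92.0% lay in 1 cell. The summed innate lymphoid list was at 777 and 746 CPM in Plet1+ cells, against 7367 and 7799 CPM in Il7r+ lymphoid cells.

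**Figure D2:**
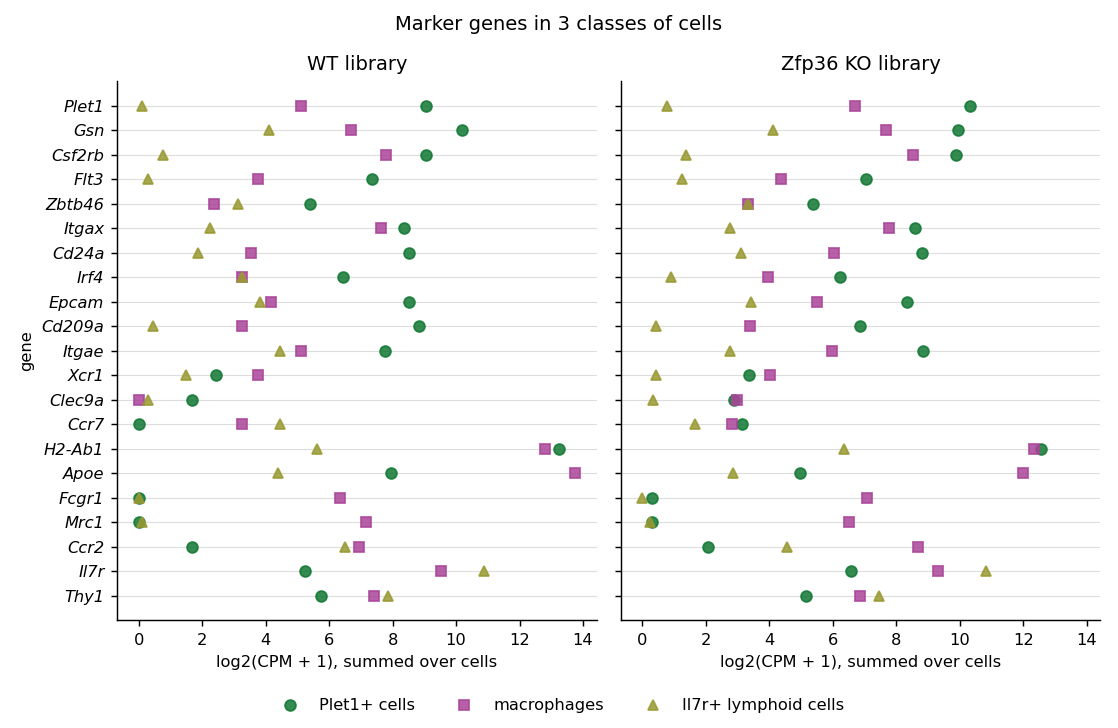
Points give log2(CPM + 1) of summed UMIs for marker genes (rows) in Plet1+ cells, macrophages and Il7r+ lymphoid cells, with the WT library on the left and the Zfp36 KO library on the right. Flt3, Zbtb46, Cd24a, Irf4, Epcam, Cd209a and Itgae lie highest in Plet1+ cells in both panels, and Fcgr1, Mrc1, Apoe and Ccr2 highest in macrophages.

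Plet1+ cells were then compared with macrophages of the same library. Of 8781 genes with at least 50 UMIs in the knockout, 525 (5.98%) lay 2-fold or more above macrophages and 1290 (14.7%) as far below. In WT, with fewer cells, 246 of 2891 were higher (8.51%) and 432 lower (14.9%). These contrasts are descriptions, because the classes were cut from the same counts. The knockout macrophages also carried plasma cell transcripts, with Jchain at 3378 CPM and Igha at 7245 CPM. In 1 cell lay 50.9% of the Jchain and 48.6% of the Igha UMIs, and 95 of the 137 carried lymphoid identity UMIs. Against macrophages with under 3 such UMIs and under 20 Jchain UMIs, 1117 of 7495 genes were higher and 774 lower, so the balance of higher and lower genes turned with the macrophages chosen.

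Gp2, a glycoprotein known as a receptor for bacteria on M cells, was at 179 CPM in knockout Plet1+ cells and 1.52 CPM in macrophages, a log2 ratio of 6.88 (5.51 to 8.76), and at 52.2 CPM and 0 UMIs in WT. It was found in 91 of 181 knockout and 4 of 19 WT Plet1+ cells. Slamf1 was at 28.9 CPM against 0.38 CPM in the knockout, where macrophages held 1 UMI (6.25, 3.74 to 11.56). In WT it was lower in Plet1+ cells, 4.35 against 18.9 CPM, with an interval that included 0 (-5.37 to 0.15). Cd209b, a lectin, and Haao, an enzyme of tryptophan breakdown, had no UMI in knockout macrophages. They stood 11.8-fold and 11.6-fold above a floor of 3 UMIs over the group, with intervals from 9.26-fold and 9.10-fold up. Tnni2 was at 261 against 30.4 CPM, Ppp1r1a at 86.2 against 7.99 CPM, Lzts1 at 21.6 against 0.76 CPM (4.83, 2.93 to 7.89, from 2 macrophage UMIs) and Itgae at 458 against 62.4 CPM. In WT, Tnni2, Ppp1r1a and Itgae lay in the same direction, while Lzts1 rested on 2 UMIs of the Plet1+ cells.

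The lowest ranked genes, by the interval end nearest 0, included genes known from macrophages. Apoe, a lipid carrier, was at 30.2 against 4098 CPM in the knockout and at 246 against 13761 CPM in WT. The chemokine Ccl24 was at 0.45 against 258 CPM, from 2 UMIs of the Plet1+ cells (-9.15, -12.19 to -7.29), and the Fc receptor Fcgr1 at 0.23 against 134 CPM, from 1 UMI (-9.20, -14.51 to -6.71). Mmp13, Ccl8, Slc11a1 and Itga9 had no UMI in knockout Plet1+ cells. With the floor of 3 UMIs they were 122-fold, 113-fold, 112-fold and 108-fold lower. Their intervals began at 98.1-fold, 91.2-fold, 90.3-fold and 86.7-fold. The other genes of the 12 lowest were C1qa, C1qb, C1qc and Jchain, which the choice of cells used, and Igkc, an immunoglobulin chain. Ccr2, the monocyte chemokine receptor, was at 3.18 against 410 CPM in the knockout.

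Several functional groups differed between the classes. Of 17 measured chemokine ligand genes, 2 were higher in knockout Plet1+ cells and 13 lower, where 11.5% and 26.7% of all genes were. The 2 were Ccl17 (142 against 8.37 CPM) and Ccl22 (41.6 against 2.28 CPM), ligands of the chemokine receptor CCR4. In WT, 0 of 13 measured were higher and 13 lower, where 20.6% of all genes were lower. Ccl17 and Ccl22 were below 20 UMIs there, with 6 against 0 and 1 against 2 UMIs. Of 13 MHC class II genes, H2-DMb2, H2-Ob and H2-Oa, which encode the accessory molecules DM and DO, were higher, and the lysosomal proteases Lgmn and Ctss lower. The class II chain H2-Ab1 itself was at 6039 and 5178 CPM. Of 26 endocytosis and lysosome genes, 3 were higher and 18 lower. Cst3, the cysteine protease inhibitor cystatin C, was among the higher, at 3943 against 1332 CPM. Of 23 actin and motility genes 13 were higher and 7 lower (Anxa3, Marcksl1, Capg, S100a4, S100a10, Anxa2 and Marcks). Among the higher were the actin-severing protein gelsolin (Gsn, 991 against 202 CPM), Lsp1 (1122 against 277 CPM) and S100a11 (796 against 156 CPM).

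Cell-cycle genes were higher than in macrophages. Of 16 measured, 15 were higher than in knockout macrophages and 0 lower, where 11.5% and 26.7% of all genes were. In WT 13 of 14 were higher and 0 lower, where 11.9% and 20.6% of all genes were. The median log2 ratios were 1.61 in the knockout and 3.14 in WT, against -0.19 and -0.13 over all genes with at least 20 UMIs. Mki67 was at 130 against 39.2 CPM in the knockout and 135 against 6.32 CPM in WT. Cells with at least 10 UMIs of Mki67 and Top2a were 22 of 181 knockout (12.2%) and 3 of 19 WT (15.8%) Plet1+ cells, against 5 of 137 and 0 of 56 macrophages. The Plet1+ cells were also deeper per cell than macrophages, whose medians were 15391 and 6635.5 UMIs, and the part of depth in these counts of cells was not tested.

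The targeted gene was read first in the comparison of genotypes. Zfp36 was at 1021 CPM in WT Plet1+ cells (median 19 UMIs per cell, 2 to 76) and at 542 CPM in knockout ones (median 11, 0 to 53), a log2 ratio of -0.91 (-1.06 to -0.77). It was also lower in knockout macrophages (867 against 1390 CPM) and Il7r+ lymphoid cells (326 against 779 CPM). The 3' end of the transcript was thus still counted in the knockout library. Where the deleted part lies relative to the counted end was not given in the sources used here, so the level does not check the genotype. The paralog Zfp36l2 was at 429 and 456 CPM (0.09, -0.12 to 0.31). Zfp36l1 was at 84.9 and 134 CPM (0.66, 0.19 to 1.16), but its ratio was -0.19 without the cells that carried lymphoid identity UMIs.

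Over all genes, 684 of 7383 with at least 50 UMIs (9.26%) lay 2-fold or more above WT in the knockout Plet1+ cells and 216 (2.93%) as far below, with a median log2 ratio of 0.14. The lists below count genes with at least 20 UMIs that differed 1.5-fold or more with an interval that excluded 0. By that rule 8.54% of 9266 genes were higher and 5.07% lower, with a median of 0.13. Counts were also simulated at the summed depth of the 19 WT cells, with counting error only and no spread between cells. A gene that was 2-fold higher there had an interval above 0 in 74.0% of cases, and a 4-fold gene in 100% of 100. With the spread of the real cells these shares were not tested.

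Of 27 measured interferon-stimulated genes, 12 were higher in knockout Plet1+ cells, 1 was lower and 14 passed neither limit, with a median log2 ratio of 0.78. Ifitm1, which encodes a membrane protein that restricts viral entry, ranked first by the interval end nearest 0. It had a median of 1 UMI per WT cell (0 to 20) and 20 per knockout cell (0 to 137), and was found in 11 of 19 and 165 of 181 cells. Its level was 109 CPM in WT and 1119 CPM in the knockout, a log2 ratio of 3.36 (2.96 to 3.79), and 40.0% of the WT UMIs lay in 1 cell. The ranges of the 2 libraries overlapped, but the upper quartile of knockout cells was 1786 CPM, while no WT cell exceeded 994 CPM. Thinned to 2000 UMIs a cell, Ifitm1 was found in 21.1% of WT (6.05% to 45.6%, 19 cells) and 66.3% of knockout cells (58.8% to 73.2%, 178 cells, 3 left out), against 57.9% and 91.2% unthinned. In thinned Il7r+ lymphoid cells, whose median depths were 5212 and 4936 UMIs, it was found in 0.119% and 1.01%.

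The guanylate-binding protein genes Gbp2 (45.7 to 234 CPM, 2.36, 1.74 to 3.05), Gbp3 (67.5 to 103 CPM) and Gbp5 (2.18 to 38.0 CPM, from 1 WT UMI, 4.12, 1.63 to 9.44) were among the higher. The surface protein gene Ly6a went from 10.9 to 72.3 CPM, Oasl2 from 19.6 to 61.8 CPM and the GTPase gene Irgm1 from 17.4 to 36.4 CPM. The signal transducer Stat2 (54.4 to 91.2 CPM, 0.74, 0.16 to 1.39) was higher as well. Within the Ifitm family the members parted. Ifitm2 was higher (237 to 409 CPM), Ifitm3 stood at 1069 and 1110 CPM (0.05, -0.08 to 0.19), and Ifitm6 was lower (531 to 336 CPM, -0.66, -0.86 to -0.46). Igtp (3.22, 0.70 to 8.54) and Rtp4 (2.93, 0.41 to 8.25) rested on 1 WT UMI each.

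Macrophages showed the group too, with 19 of 30 genes higher and 0 lower (median 0.999), where 8.45% and 6.06% of 9403 genes were. By the 2-fold rule 6.91% of 7116 genes were higher in knockout macrophages and 2.7% lower. The difference between the classes was not tested. Ifitm1 was 3.24 higher there (2.43 to 4.20). Ifitm3 (1.13, 0.91 to 1.36) and Ifitm6 (0.97, 0.15 to 1.92) were also higher in knockout macrophages. Male-type knockout Plet1+ cells had 2027 CPM of Ifitm1 and the other knockout cells 963 CPM. Without the male-type cells the log2 ratio of Ifitm1 was 3.14.

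Promoters from RefSeq (GRCm38.p6, 250 bases before to 50 after the gene start) of 2 of these genes are shown because their interferon-response motifs could be searched beside the values. The motif, GAAA followed by NN (any bases) and again GAAA, of the kind bound by interferon-activated factors, was searched on both strands and is in capitals, here as its reverse complement. It was in 3.44% of 32851 promoters of that length, and in at least 1 promoter of 3.99% of 27025 genes. Of the 23 genes of the interferon list in the table, 15 held it (65.2%), and of the 9 that were higher in knockout Plet1+ cells, 7. The list was made of genes known for their response to interferon, and a match is a description. The promoter of Ifitm1 in the same table held no match.
Gbp2, chr3:142620413-142620712, plus strand, motif at 59 bases before the start: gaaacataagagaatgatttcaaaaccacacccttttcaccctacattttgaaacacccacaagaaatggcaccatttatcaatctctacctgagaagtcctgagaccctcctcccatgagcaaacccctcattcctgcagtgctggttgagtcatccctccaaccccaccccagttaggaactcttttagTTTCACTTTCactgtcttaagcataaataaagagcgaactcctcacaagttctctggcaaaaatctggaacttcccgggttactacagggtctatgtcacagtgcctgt
Gbp5, chr3:142496684-142496983, plus strand, motif at 165 bases before the start: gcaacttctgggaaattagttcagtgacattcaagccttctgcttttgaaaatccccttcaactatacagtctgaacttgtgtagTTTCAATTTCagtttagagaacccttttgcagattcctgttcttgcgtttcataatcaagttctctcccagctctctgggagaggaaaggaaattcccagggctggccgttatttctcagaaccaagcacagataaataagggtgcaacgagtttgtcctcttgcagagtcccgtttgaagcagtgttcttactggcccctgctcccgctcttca

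**Figure D3:**
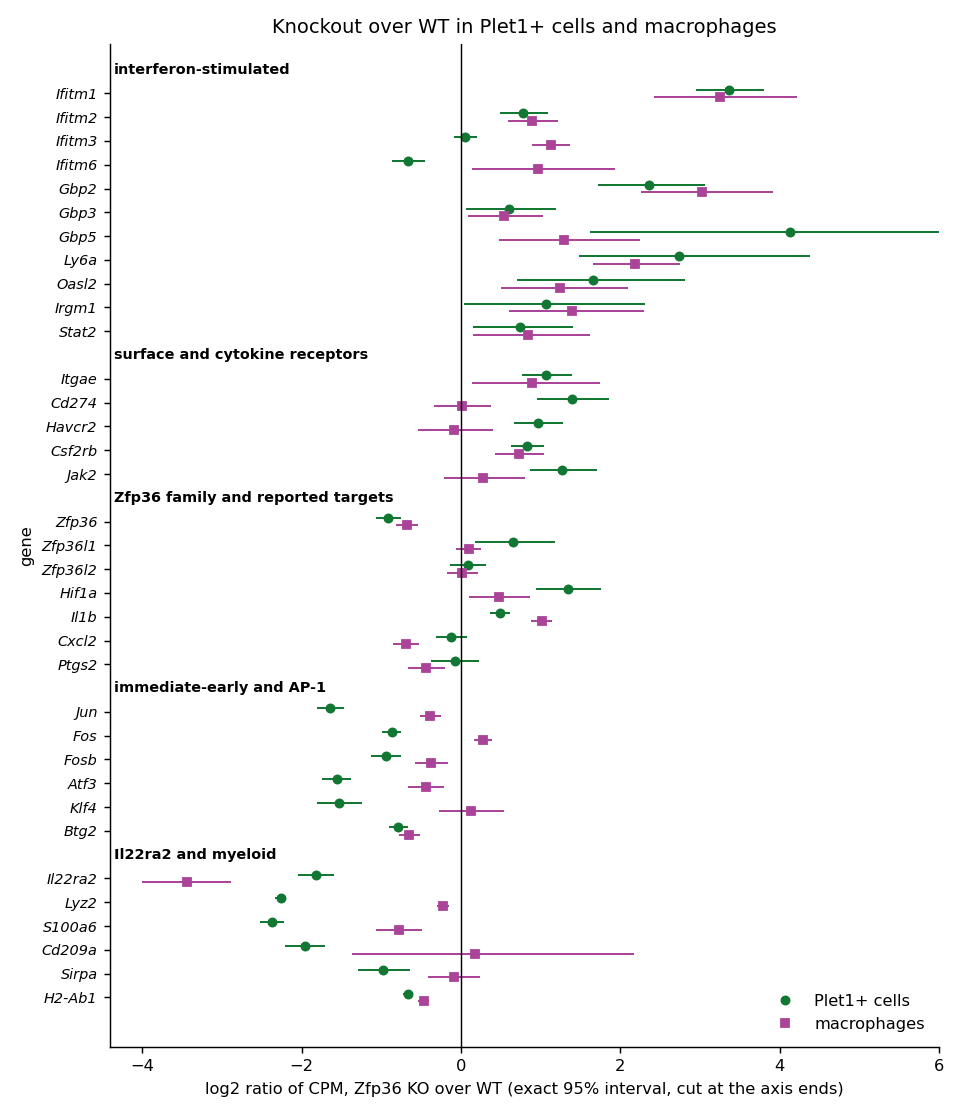
Log2 ratios of CPM, Zfp36 KO over WT, for named genes (rows, grouped) in Plet1+ cells (circles) and macrophages (squares), with exact 95% intervals for counting error that are cut at the axis ends. Ifitm1 lies at 3.36 and 3.24 in the 2 classes, Fos at -0.87 and 0.28, and Lyz2 at -2.26 and -0.22.

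Of 8 measured chemokine ligands, 5 were higher in the knockout cells and 2 lower (Ccl4 and Ccl5). Ccl17 went from 13.1 to 142 CPM (3.45, 2.32 to 4.90) and was found in 4 of 19 WT and 76 of 181 knockout cells, with at most 3 UMIs in a WT cell and 71 in a knockout cell. Ccl22 (2.18 to 41.6 CPM, 1 WT UMI, 4.26, 1.76 to 9.57) was found in 37 knockout cells, of which 28 also held Ccl17. Cxcl9 (3.15, 1.59 to 5.44) and Cxcl10 (2.91, 1.03 to 5.97), interferon-induced ligands of CXCR3, rested on 3 and 2 WT UMIs. They were concentrated: the 10 richest of 181 knockout cells held 83.1% and 97.2% of their UMIs. Across the alternative settings the ratio of Cxcl9 ranged from 0.43 to 3.31 and that of Cxcl10 from 1.56 to 3.18. Cxcl16 was at 135 and 261 CPM (0.95, 0.58 to 1.35). Ccl4 was lower, at 152 and 25.01 CPM, and 48.6% of its WT UMIs lay in 1 cell.

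Of 12 costimulation and checkpoint ligand genes, 3 were higher, 1 was lower (Vsir) and 8 passed neither limit. Cd274, which encodes PD-L1, had a median of 2 UMIs in WT cells (0 to 8) and 6 in knockout cells (0 to 29), 100 and 262 CPM (1.39, 0.96 to 1.85). Havcr2, which encodes TIM-3, was at 218 and 424 CPM (0.96, 0.67 to 1.27) and Cd80 at 41.4 and 70.0 CPM (0.76, 0.09 to 1.51). Cd86 was at 244 and 238 CPM (-0.04, -0.32 to 0.26). In macrophages the ratios of Cd274 (0.01, -0.32 to 0.36) and Havcr2 (-0.08, -0.53 to 0.39) had intervals that included 0, and the difference between the classes was not tested.

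Receptors for growth factors and tissue homing differed in both directions. Csf2rb, the shared signalling chain of the GM-CSF, IL-3 and IL-5 receptors, had a median of 13 UMIs per WT cell (0 to 27) and 20 per knockout cell (0 to 94), 529 and 941 CPM (0.83, 0.64 to 1.02). Its partner Csf2ra was at 437 and 338 CPM (-0.37, -0.59 to -0.15), and the kinase gene Jak2 at 118 and 283 CPM (1.27, 0.88 to 1.69). Of the 12 GM-CSF receptor and signalling genes, 3 were higher and 2 lower. Socs2, the third of the higher ones, was at 41.4 and 98.4 CPM, and 63.2% of its WT UMIs lay in 1 cell. The lower ones were Csf3r and Csf1r, the second at 78.4 and 36.8 CPM. Of 12 chemokine and homing receptor genes, 3 were higher (Gpr35, Itgae and Itga4) and 3 lower (Cxcr4, Ccr9 and Itgb7). Itgae was at 218 and 458 CPM (1.07, 0.78 to 1.38), and Itga4, an integrin chain used in gut homing, at 192 and 351 CPM (0.87, 0.56 to 1.20). Itgb7, the integrin chain that pairs with both, was lower, at 137 and 87.5 CPM (-0.65, -1.03 to -0.24). The gut-homing receptor gene Ccr9 was at 131 and 55.02 CPM (-1.25, -1.66 to -0.81). Cxcr4 was at 157 and 33.4 CPM (-2.23, -2.65 to -1.80).

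Immediate-early genes are those whose transcripts respond within minutes to stimulation or handling of cells. Of 23 measured, 0 were higher in the knockout, 13 were lower and 10 passed neither limit, with a median of -0.61. Jun had a median of 8 UMIs per WT cell (0 to 106) and 3 per knockout cell (0 to 80), 971 and 311 CPM (-1.64, -1.80 to -1.49). Fos was at 1748 and 956 CPM (-0.87, -0.98 to -0.76), Fosb at 688 and 358 CPM (-0.94, -1.12 to -0.76) and Atf3 at 834 and 283 CPM (-1.56, -1.73 to -1.39). In macrophages 1 of 23 was higher and 4 lower (median -0.29), and Fos was higher (0.28, 0.18 to 0.38). The part of cell handling in these differences was not tested. Of 18 NF-kB and feedback genes, 7 were higher and 1 lower in knockout Plet1+ cells (median 0.63), with Nfkb1 at 107 and 201 CPM, Rel at 200.2 and 358 CPM and Nfkbid lower at 91.4 and 46.6 CPM.

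Transcripts reported as tristetraprolin targets showed no common direction. Of 23 measured, 4 were higher and 4 lower, with a median of -0.10. Hif1a, the hypoxia-response transcription factor, had a median of 3 UMIs per WT cell (0 to 7) and 7 per knockout cell (0 to 30), 124 and 314 CPM (1.34, 0.96 to 1.75). Bcl2l11, a pro-apoptotic factor, was at 23.9 and 73.4 CPM (1.62, 0.76 to 2.63) and Socs3 at 39.2 and 79.6 CPM (1.02, 0.34 to 1.79). Il22 had 50 UMIs in the knockout cells, 62.0% of them in 1 cell, and none in WT. Zfp36, Fos, Ccl4 and Nfkbid were the lower members. Il1b was at 1528 and 2148 CPM (0.49, 0.38 to 0.60), short of 1.5-fold. Cxcl2 (599 and 549 CPM, -0.12, -0.30 to 0.06) and the cyclooxygenase gene Ptgs2 (252 and 239 CPM, -0.08, -0.36 to 0.21) had intervals that included 0.

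The core motif of tristetraprolin sites, TATTTAT in DNA letters, was searched on the coding strand in the longest 3' untranslated region annotated for each gene (GENCODE M21, GRCm38). It was present in 27.6% of 20986 genes. A selection of the sites of 4 genes is shown (1 of 1 for Plet1, 2 of 3 for Hif1a, 2 of 4 for Cd274 and 1 of 3 for Zfp36), with the motif in capitals and up to 7 bases on either side, because Plet1 marks the cells, Hif1a and Cd274 differed between genotypes and Zfp36 is the targeted gene itself.
Plet1, chr9:50505390-50505410, plus strand: cttgtaaTATTTATagtacaa
Hif1a, chr12:73945807-73945827, plus strand: agcagtcTATTTATattttct
Hif1a, chr12:73946009-73946029, plus strand: accttttTATTTATttatttt
Cd274, chr19:29385712-29385732, plus strand: tgccttcTATTTATtttgagt
Cd274, chr19:29387935-29387955, plus strand: cacattcTATTTATtcatttt
Zfp36, chr7:28376955-28376975, minus strand: acgacttTATTTATtgtatta

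Il22ra2, Ifitm1, Gsn and Csf2rb held no match. In Plet1+ cells the median knockout over WT log2 ratio was 0.12 for 5040 genes with no match, 0.15 for 1447 with 1 and 0.25 for 797 with 2 or more. At least 2-fold higher were 8.45%, 10.0% and 13.3% of them, and at least 2-fold lower 3.02%, 2.35% and 2.38%. The median length of the untranslated region was 859, 1920 and 2985 bases in these groups, and its part in the difference was not tested. In macrophages the medians were 0.09, 0.12 and 0.18, and 6.92%, 5.81% and 7.56% were at least 2-fold higher, shares that did not follow the number of matches. In Il7r+ lymphoid cells both rose with the number of matches, as in Plet1+ cells. The medians there were 0.12, 0.24 and 0.28, and 2.93%, 3.47% and 5.01% were at least 2-fold higher. At least 2-fold lower in lymphoid cells were 2.11%, 1.73% and 2.85%, a share highest with 2 or more matches, unlike in Plet1+ cells. In macrophages the lower shares were 2.70%, 2.62% and 2.02%.

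The dendritic cell lists differed from one another. Of the 9 conventional dendritic cell genes, 0 were higher and 0 lower (median -0.02), with Flt3 at 161 and 130.3 CPM (-0.31, -0.66 to 0.06) and Itgax at 324 and 387 CPM (0.25, 0.01 to 0.51). Of 13 MHC class II genes, 0 were higher and 2 lower: H2-Ab1 (9603 and 6039 CPM, -0.67, -0.72 to -0.62) and H2-Ob (137 and 76.4 CPM, -0.84, -1.24 to -0.43). Of 9 cDC1 genes, 4 were higher and 0 lower (median 1.03): Itgae, Naaa, Wdfy4 (242 and 377 CPM) and Cadm1. Cadm1 had 44 knockout UMIs in 5 cells and none in WT (1.53-fold above the floor of 3 UMIs). With cells of 1 Plet1 UMI or more the ratio of Cadm1 was -1.55. Of 7 genes of mature or migratory dendritic cells, 4 were higher and 0 lower: Ccl17, Ccl22, Cd274 and Socs2, with the values above. Of the 12 cDC2 genes, 1 was higher and 5 lower. The lower cDC2 genes included Cd209a (-1.96, -2.19 to -1.72), Klf4 (326 and 113 CPM, -1.53, -1.80 to -1.26) and Sirpa (224 and 114 CPM, -0.97, -1.28 to -0.65). Of 16 cell-cycle genes, 0 were higher and 7 lower (median -0.51), but Ube2c, at -1.54 with 64.4% of its WT UMIs in 1 cell, was at -0.45 without the cells rich in Mki67 and Top2a. Mki67 itself was at 135 and 130 CPM (-0.05, -0.43 to 0.35). Gsn was at 1173 and 991 CPM (-0.24, -0.37 to -0.11), with medians of 28 UMIs (3 to 57) and 24 UMIs (0 to 74) per cell. Plet1, which chose the cells, was at 527 and 1270 CPM.

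The other genes ranked highest over WT were Ifi205, Olfm1 (2.18 to 45.2 CPM, 1 WT UMI, 4.38, 1.88 to 9.69), Serpina3g (15.2 to 109.8 CPM), the metallothionein Mt1 (115 to 519.7 CPM, 2.17, 1.78 to 2.59), Map4k4 (8.71 to 75.03 CPM), the IL-21 receptor gene Il21r and Ddx3y. Ifi205, an interferon-inducible gene, had 142 knockout UMIs and none in WT, 4.94-fold above the floor of 3 UMIs (interval from 3.97-fold up). Il21r (0 to 25.9 CPM) was 3.97-fold above that floor (interval from 3.18-fold up). Ddx3y is Y-linked, and its 114 UMIs lay in 29 knockout cells, with none in WT (3.97-fold, interval from 3.18-fold up). The genes ranked lowest were led by the lysozyme gene Lyz1 (196 to 8.64 CPM, -4.50, -5.09 to -3.94, 44.4% of WT UMIs in 1 cell), the matrix protein gene Tgfbi (133 to 8.18 CPM, -4.02, -4.66 to -3.40) and Phlda1 (65.3 to 4.55 CPM, 76.7% of WT UMIs in 1 cell). Klf2, Apoe, Hebp1, Cd209b, Tsc22d3, Hspa1b, Hpgd and S100a6 were also among them, with ratios between -3.35 and -2.38. Lyz2, the second lysozyme gene, had a median of 99 UMIs per WT cell (2 to 827) and 18 per knockout cell (0 to 577), 8567 and 1786 CPM (-2.26, -2.32 to -2.21).

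**Figure D4:**
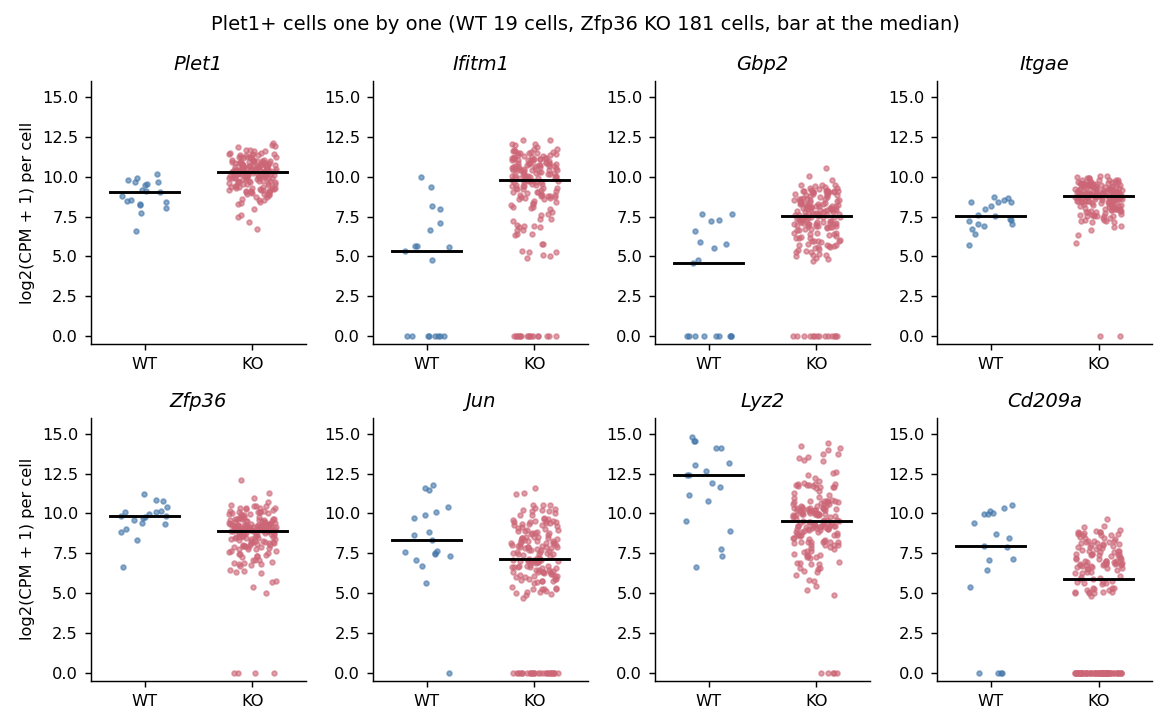
Each point is 1 Plet1+ cell, 19 in WT and 181 in the Zfp36 KO library, at its log2(CPM + 1) for the gene in the panel's title, and black bars mark medians. Ifitm1, Gbp2 and Itgae lie higher in the knockout cells and Zfp36, Jun, Lyz2 and Cd209a lower, with ranges that overlap in every panel.

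Il22ra2, the gene of IL-22 binding protein, lay almost wholly in Plet1+ cells and macrophages. Plet1+ cells held 71.7% of all Il22ra2 UMIs of kept WT cells and 91.6% of those of kept knockout cells, and with macrophages 97.4% and 97.8%. Its summed level over Plet1+ cells was 535 CPM for the WT library and 151 CPM for the knockout library, a log2 ratio of -1.82 (-2.04 to -1.61). In macrophages it was 185 and 17.1 CPM, with 92.0% of the WT macrophage UMIs in 1 cell. In Il7r+ lymphoid cells there was 1 UMI over 2548 WT cells and 3 UMIs over 2235 knockout cells. Thinned to 2000 UMIs, Il22ra2 was found in 26.3% of WT (9.15% to 51.2%) and 6.18% of knockout Plet1+ cells (3.12% to 10.8%), and in no thinned lymphoid cell of either library, which allows up to 0.147% and 0.169% of cells with a UMI at that depth. Unthinned, 1 WT and 2 knockout lymphoid cells held a UMI.

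A few cells carried nearly all of it. Cells with at least 10 Il22ra2 UMIs, a limit set after the values were seen, were 5 of 19 in WT, with 91, 60, 34, 34 and 18 UMIs, and 7 of 181 in the knockout, with 37 to 176. They held 96.3% and 95.5% of the Il22ra2 UMIs of the Plet1+ cells, and the richest of the others had 5 and 7 UMIs. Within the rich cells Il22ra2 reached 1947 CPM (WT) and 3420 CPM (knockout), against 26.6 and 7.12 CPM in the other Plet1+ cells. Rich cells were 26.3% of WT Plet1+ cells (9.15% to 51.2%) and 3.87% of knockout ones (1.57% to 7.81%). Of all kept cells they were 0.147% in WT (0.0478% to 0.343%) and 0.210% in the knockout (0.0843% to 0.431%), intervals that overlap, while the other Plet1+ cells numbered 14 and 174. Since the rich cells were chosen by these UMIs, their number and the levels within them are descriptions. One WT cell and 2 knockout cells with at least 10 Il22ra2 UMIs lay outside, each a macrophage by its C1q UMIs with at least 3 Plet1 UMIs.

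The Il22ra2-rich cells differed from the other Plet1+ cells in both libraries. Cd209a was found in 1 of 5 rich WT cells, with 2 UMIs, and in 0 of 7 rich knockout cells, against 14 of 14 and 112 of 174 of the other cells. Lyz2 was at 20394 CPM in rich and 4305 CPM in other WT cells, and at 15176 and 1195 CPM in the knockout. S100a6, a calcium-binding protein, was at 5103 and 115 CPM in WT and at 3700 and 126 CPM in the knockout. Of 3161 genes with at least 20 UMIs in each library, 17 were higher in rich cells of both libraries with the whole interval beyond 2-fold, and 15 lower. Among the higher were Il22ra2 itself, which chose the cells, the gut-homing receptor gene Ccr9 (288 and 74.0 CPM in WT, 312 and 43.7 CPM in the knockout), the IL-1 receptor antagonist gene Il1rn (222 and 5.92 CPM, 231 and 11.6 CPM), Klf2, Lyz1 and Hebp1. Among the lower were Gp2, Tnni2, Lgals3, and the cell-cycle genes Top2a and Ube2c. These genes were named after their values were seen.

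Several differences between genotypes went with these cells. Without the rich cells the knockout over WT log2 ratio of S100a6 was 0.12, in place of -2.38, that of Il1rn 0.97, in place of -1.59, and that of Klf2 -1.47, in place of -3.35. Lyz2 (-1.85), Cd209a (-2.33) and Ifitm1 (3.91) kept their direction. Il22ra2 itself was at -1.90 there, from 9 WT and 30 knockout UMIs. With at most 5% mitochondrial UMIs, which left 11 WT and 45 knockout cells, Il22ra2 was at -0.47 (-0.70 to -0.23). The male-type knockout cells held 217 Il22ra2 UMIs in 3 of 29 cells, a level of 336 CPM, against 119.6 CPM in the other 152 cells. Without the male-type cells the ratio was -2.16.

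**Figure D5:**
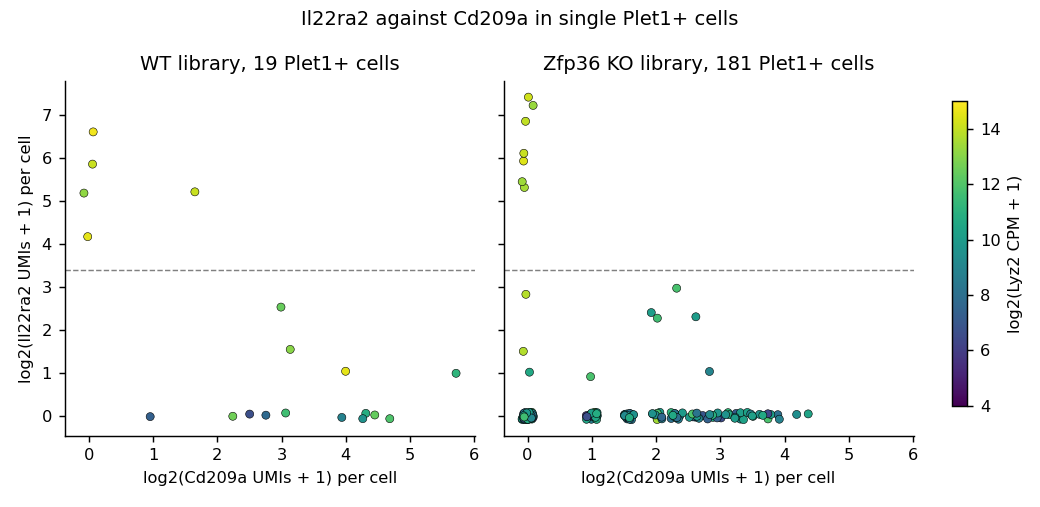
Each point is 1 Plet1+ cell, at log2(UMIs + 1) of Cd209a (horizontal) and Il22ra2 (vertical), with a small random shift, coloured by log2(CPM + 1) of Lyz2, and the dashed line lies just under 10 Il22ra2 UMIs. The 5 WT and 7 knockout cells above the line hold at most 2 Cd209a UMIs and have high Lyz2.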

How the data were processed

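Cells sorted as innate lymphoid cells from 4 pooled mice per genotype were profiled with a 10x 3' kit, 1 library each. The deposited matrices hold raw UMI counts per gene and barcode, made with Cell Ranger 3.1.0 per the file headers and genome build mm10 per the submitters' processing notes. Annotation release, barcode calling settings and treatment of free RNA or doublets were not given in the sources used here. Groups were taken from the sample titles.

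UMIs were summed per class and library and given as CPM (UMIs of a gene per 1000000 UMIs of the class), with Python 3.11.15, numpy 2.4.6, scipy 1.17.1 and pandas 2.3.3. Ratios carry exact 95% intervals from the split of UMIs, shares Clopper-Pearson intervals. Genes at 0 were set to a floor of 3 UMIs over the group. On simulated knockout and WT counts of 7383 genes, the interval covered the true ratio for 96.6% of the genes left unchanged. The simulation drew counts with the same counting error that the interval assumes, so it checks the calculation and not the spread between cells. Doublets were called with Scrublet in scanpy 1.11.5. Genes were named by list membership with 1.5-fold or more and at least 20 UMIs, and as the 12 highest and 12 lowest per contrast, by the interval end nearest 0, among genes with at least 50 UMIs in at least 10% of cells of the higher side. No gene was excluded from totals or list counts, and some genes that the rule named are not reported here. Il7r+ lymphoid cells had at least 3 Il7r UMIs, under 20 of Cd74, under 3 of C1q and under 20 of Jchain. Members, lists and rules were chosen with earlier results of these data known. Gene positions are from GENCODE M21 on GRCm38, the assembly of mm10. Alternatives covered the cell filters, thresholds, scaling, weighting and gene minimum.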

Additional observations from a re-analysis of the deposited data

Results flagged for a closer look

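Of 6449 genes measured in both classes, 15 lay at least 2-fold in opposite directions in knockout over WT Plet1+ cells and knockout over WT macrophages. The difference between the classes was not tested, since each genotype is 1 library. Genes lower in knockout Plet1+ cells and higher in knockout macrophages were the inhibitory lectin Clec12a (log2 ratios -2.30 and 3.50), the IL-1 receptor antagonist Il1rn (-1.59 and 1.26), the macrophage elastase Mmp12 (-1.22 and 2.24), Tifa (-1.29 and 1.03) and Mbd6 (-1.08 and 1.44). So were the cell-cycle genes Ube2c (-1.54, with no UMI in WT macrophages), H2afx (-1.37 and 1.12), Birc5 (-1.33 and 3.18), Stmn1 (-1.24 and 2.79), Cdkn2d (-1.14 and 1.67) and Cks1b (-1.09 and 1.51). Higher in Plet1+ cells and lower in macrophages were the kinase Fyn (1.09 and -1.08), C130050O18Rik (1.12 and -1.27), the growth factor Pgf (2.11 and -1.37) and Gpr171 (2.16 and -1.01). Several rest on few UMIs: Clec12a on 3 and Birc5 on 1 UMI in WT macrophages, and Gpr171 on 7 and Pgf on 8 UMIs in WT Plet1+ cells. Others went with a few cells. Without the Il22ra2-rich cells Il1rn was at 0.97 in Plet1+ cells, no longer opposite to macrophages. Without the cells rich in Mki67 and Top2a, Ube2c was at -0.45 there, short of 2-fold.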

How the results depend on the processing

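Of 160 alternative values of the shares, counts of genes and the Il22ra2 level, 133 stayed within the error or within 1.5 times, and 27 moved. The cause was not tested unless the setting itself removes cells or genes. The knockout share of Plet1+ cells was 3.86% with at most 5% mitochondrial UMIs and 4.10% without cells carrying lymphoid identity UMIs. Against macrophages, 525 of 8781 genes were higher (5.98%) and 1290 lower (14.7%). With at least 200 UMIs per gene these were 292 and 480 of 4889 (5.97% and 9.82%), and within WT 246 and 432 of 2891 (8.51% and 14.9%). Against macrophages with under 3 lymphoid identity UMIs and under 20 Jchain UMIs, they were 1117 and 774 of 7495 (14.9% and 10.3%). That alternative was chosen after seeing the data. For knockout over WT, 684 and 216 of 7383 (9.26% and 2.93%) became 364 and 89 of 3863 (9.42% and 2.30%) with at most 5% mitochondrial UMIs and 184 and 50 of 3502 (5.25% and 1.43%) with at least 200 UMIs per gene, while 427 of 9266 (4.61%) were lower with at least 20. The Il22ra2 ratio of -1.82 was -1.55 with Plet1 at 1 UMI or more, -2.08 with Jchain under 5, -0.47 with at most 5% mitochondrial UMIs, -2.16 without male-type cells (chosen after seeing the data) and -6.85 without the richest 5% of cells, which removes 1 WT and 10 knockout cells. Shares of cells with a UMI followed depth. Ifitm1 in the knockout was 66.3% at 2000 UMIs, 56.1% at 1000, 81.0% at 4000 and 91.2% unthinned, and in WT 21.1% and 57.9% unthinned. Csf2rb in the knockout was 78.1%, 55.0%, 92.0% and 99.4%, and in WT 52.6%, 78.9% at 4000 and 94.7% unthinned.

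Among named genes, 78 of 3039 alternative knockout over WT ratios changed sign, 74 of them for genes that differed under 1.5-fold or with an interval that included 0. The other 4 were Cadm1 with Plet1 at 1 UMI or more (-1.55), Zfp36l1 without lymphoid identity cells (-0.19), and, without Il22ra2-rich cells, Il1rn (0.97) and S100a6 (0.12). Against macrophages 68 of 3125 changed sign, 20 of them for genes past both limits. Within WT these 20 included Clec12a (2.78), Cxcr4 (0.38), Hif1a (-0.23), Il18 (0.048), Il1rn (0.26), Lyz2 (0.83), Mt1 (-1.97), Pgf (-2.38), Sirpa (0.020) and Tsc22d3 (0.021). Against the macrophages with few lymphoid identity and Jchain UMIs they included Hpgd (-0.10), Il23a (-0.12), Il7r (4.36), S100a6 (-0.18), Serpina3g (0.37), Thy1 (2.92) and Xcr1 (0.43). Xcr1 was at 0.21 with equal weight per cell and 2.02 without the deepest cells, and Pgf at -0.10 with at most 5% mitochondrial UMIs. No paired analysis was possible because each genotype has 1 library, and no library could be left out. The 19 WT cells limit the precision of each genotype ratio.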
